A study of Mus musculus with 6 samples.

Results

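The interferon-induced GTPases described here are 8 genes of brown adipose tissue, the fat depot that burns lipid to make heat. They are the guanylate-binding protein (GBP) genes Gbp2, Gbp3, Gbp6 and Gbp7 and the immunity-related GTPase (IRG) genes Igtp, Iigp1, Irgm1 and Irgm2. The 8 were taken by gene symbol, not by any measured value, from a table of 24043 entries, and each of the 8 was found on 1 line. PolyA RNA was sequenced in 3 libraries labelled AdIl17rc KO and 3 labelled WT, all from flash-frozen brown fat of C57BL6 mice. By the title of the series, the knockout concerns IL-17RC, a subunit of the receptor for interleukin-17, in adipocytes. Not given in the sources used here were the Cre line or promoter behind the knockout, the age and sex of the mice, the housing temperature and the number of animals behind each library.

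Both families are large cytosolic GTPases that cells make in quantity after exposure to interferon gamma and, more weakly, to type I interferons. GBPs gather on the membranes of bacteria and of vacuoles that hold parasites, break them open and expose their contents to inflammasome sensors. IRG proteins fall into effectors such as Iigp1 (Irga6), which also attack such vacuoles, and regulators that sit on the cell's own membranes and keep the effectors in an inactive form there. The regulators are Irgm1, Irgm2 and Igtp (Irgm3), and Igtp protein is known from the endoplasmic reticulum and from lipid droplets. Transcription of these genes is known to be driven through the interferon-stimulated response element (ISRE), to which factors of the IRF family bind, and through the gamma-activated site (GAS).

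The RefSeq promoter table (GRCm38.p6) held 6 of the 8 genes, Gbp2, Gbp3, Gbp7, Igtp, Irgm1 and Irgm2, and gave for each a window of 300 bases, 250 before and 50 after an annotated transcript start. The ISRE core, searched on both strands as GAAA, any 2 bases and GAAA again (TTTC, any 2 bases and TTTC on the other strand), was present in the windows of 6 of these 6 genes. It was present in 3.44% of all 32851 promoter windows of that length and for 3.63% of the 8158 tested genes with a window. The stretches that hold it are shown because they are the sequence these 6 genes share. They run 5′ to 3′ on the gene's strand, and the capitals mark the ISRE core.
Gbp2, chr3:142620584-142620633, plus strand: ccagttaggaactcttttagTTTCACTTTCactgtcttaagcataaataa
Gbp3, chr3:142559979-142560034, plus strand: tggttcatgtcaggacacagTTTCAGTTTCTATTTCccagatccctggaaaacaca
Gbp7, chr3:142530263-142530312, plus strand: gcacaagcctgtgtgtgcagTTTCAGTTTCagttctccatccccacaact
Igtp, chr11:58199502-58199551, plus strand: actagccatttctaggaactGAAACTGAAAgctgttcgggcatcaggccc
Irgm2, chr11:58214893-58214942, plus strand: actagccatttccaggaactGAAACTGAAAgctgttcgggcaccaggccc
Irgm1, chr11:48871415-48871470, minus strand: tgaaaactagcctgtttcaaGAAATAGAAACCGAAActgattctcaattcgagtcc
In Gbp3 and Irgm1 the capitals span 2 matches that overlap each other. The 3 GBP stretches carry the core in its TTTC form and the 3 IRG stretches in its GAAA form. A second Gbp3 window, at another annotated start, held no match.

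The first base of the match lay 59 bases before the annotated start in Gbp2, 45 in Gbp3, 53 in Gbp7, 34 in Igtp, 64 in Irgm2 and 30 in Irgm1. The GAS sequence TTCNNNGAA, which reads the same on both strands, was found in Gbp7 (2 matches), Igtp and Irgm2, and in 8.3% of all promoter windows. None of these GAS matches overlapped an ISRE core. The Igtp and Irgm2 windows were the most alike pair: 265 of 300 positions could be aligned, and 244 of them were identical (92.1% of the aligned positions, 81.3% of the window). The other pairs among the 6 genes were identical over 49.7% to 56.3% of the window. A match is a description of the letters in the window, and binding was not measured.

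**Figure D1:**
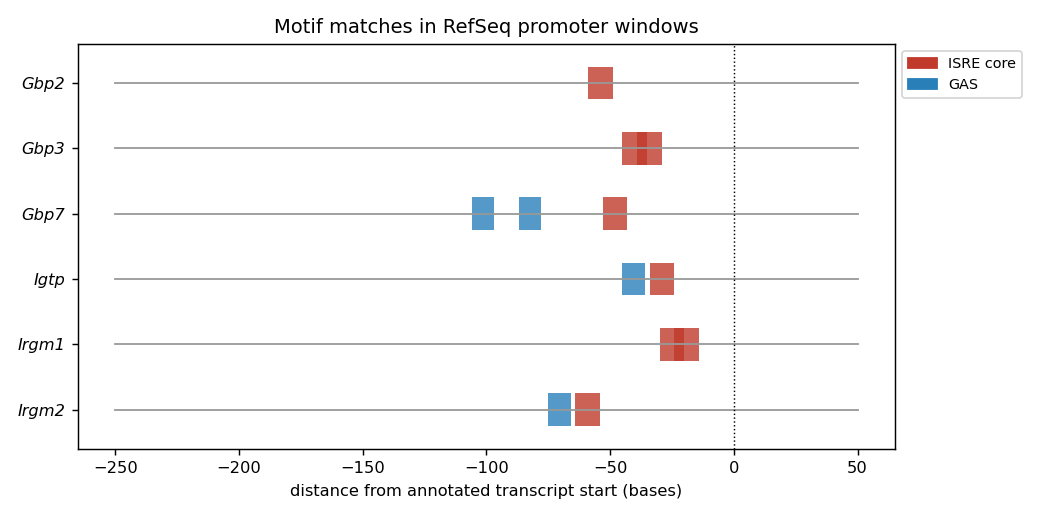
Matches to the ISRE core (red) and to GAS (blue) in the promoter windows of the 6 genes in the table, on an axis of distance in bases from the annotated transcript start (dotted line). Every first ISRE match begins between 30 and 64 bases before the start, and darker stretches in Gbp3 and Irgm1 are 2 overlapping matches.

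Expression is given as the FPKM that the authors deposited, which divides the fragments of a gene by its transcript length in kilobases and by the mapped megafragments. No depth was listed, and an approximation from the value of single fragments in low genes gave 31.3 to 36.4 megafragments for AdIl17rc KO libraries and 33.2 to 38.8 for WT libraries. At that depth the member value with the fewest fragments, Gbp3 in WT library 3, stood for about 409 fragments. The value with the most, Iigp1 in AdIl17rc KO library 3, stood for about 18144. The counting error estimated from these fragments was thus about 4.94% for the value with the fewest and smaller for the others. This estimate leaves out the uncertain split of reads between similar genes. The targeted gene Il17rc was at 1.32, 0.619 and 0.530 FPKM in AdIl17rc KO libraries 1, 2 and 3, against 3.21, 2.28 and 2.02 FPKM in WT libraries 1, 2 and 3, which separated the labelled groups. The log2 fold change (KO over WT) of the median gene was -0.29. Many results are therefore also given after scaling every library to the median gene ("scaled"), where that shift was -0.0017. Some fold changes of single genes are given only as deposited. Library 2 of AdIl17rc KO held 146487 of its 383558 FPKM in the small RNA feature Mir6236, and summed skeletal muscle markers were at 207, 365 and 1.56 FPKM in AdIl17rc KO libraries 1, 2 and 3, against 2.99, 2.37 and 29.2 FPKM in WT libraries 1, 2 and 3. Separate animals are not named for the libraries, and p-values therefore cover the spread between samples only, which may be technical.

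All 8 GTPase genes had a higher mean in AdIl17rc KO than in WT brown fat, by 1.27-fold for Gbp2 up to 3.80-fold for Iigp1, with a median of 2.23-fold. None of these differences passed the test over all genes. A single library, AdIl17rc KO library 3, held the highest value of every one of the 8, and AdIl17rc KO libraries 1 and 2 lay below WT library 2 for 7 of them as deposited and for 4 scaled (Gbp2, Gbp6, Igtp and Iigp1). Gbp3 was the exception: its lowest AdIl17rc KO value stood above its highest WT value. In bulk tissue, more cells of a type that makes these transcripts and more transcript per cell cannot be told apart.

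Gbp2, a GBP that is anchored to membranes by a lipid tail and gathers on Toxoplasma vacuoles, was the most abundant of the 8 in WT. It was at 29.8, 21.03 and 55.5 FPKM in AdIl17rc KO libraries 1, 2 and 3, against 25.5, 40.2 and 17.9 FPKM in WT libraries 1, 2 and 3. AdIl17rc KO library 2 stood below WT libraries 1 and 2, and the groups overlapped throughout. The means were 35.5 ± 17.9 FPKM in AdIl17rc KO and 27.9 ± 11.3 FPKM in WT (SD, n = 3 each). Fold changes are differences on the log2(FPKM + 0.5) scale with their standard error, from limma fitted over the 10864 genes with a mean of at least 0.5 FPKM. That of Gbp2 was 0.30 ± 0.38 (limma adjusted p = 0.578), or 0.63 ± 0.43 scaled (0.452), the smallest of the 8 on both scales.

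Gbp3, which is also recruited to Toxoplasma vacuoles, was at 9.36, 9.78 and 21.2 FPKM in AdIl17rc KO libraries 1, 2 and 3, against 5.59, 8.33 and 4.19 FPKM in WT libraries 1, 2 and 3. All 3 AdIl17rc KO libraries were above all 3 WT libraries, by a margin of little over 1 FPKM between AdIl17rc KO library 1 and WT library 2, and the groups stayed apart after scaling. The means were 13.4 ± 6.72 FPKM in AdIl17rc KO and 6.04 ± 2.10 FPKM in WT (SD, n = 3 each), a log2 fold change of 1.04 ± 0.34 that did not pass (limma adjusted p = 0.162; 1.35 ± 0.40 scaled, 0.238). Its own 95% interval, not adjusted for the number of genes, ran from 0.27 to 1.81. An exact two-sided permutation test of the 3 against 3 values gave p = 0.1, the smallest this design allows.

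Gbp6 belongs to a separate GBP cluster with Gbp10, and mouse macrophages need it in defence against Listeria. It was at 11.4, 12.0 and 35.0 FPKM in AdIl17rc KO libraries 1, 2 and 3, against 8.59, 15.3 and 6.43 FPKM in WT libraries 1, 2 and 3. WT library 2 stood above AdIl17rc KO libraries 1 and 2. Gbp6 had a log2 fold change of 0.80 ± 0.45 (limma adjusted p = 0.254; 1.12 ± 0.52 scaled, 0.306). Of its transcript's stretches of 50 bases, 59.7% also occur in other annotated genes, 51.5% in Gm43302 and 43.8% in Gbp10. The split of reads between these genes is therefore uncertain.

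Gbp7, which brings NADPH oxidase subunits to bacterial vacuoles in mouse macrophages, was the least abundant member. Its values were 3.93, 4.56 and 14.9 FPKM in AdIl17rc KO libraries 1, 2 and 3, against 2.95, 5.15 and 2.33 FPKM in WT libraries 1, 2 and 3. Again only AdIl17rc KO library 3 stood above WT library 2. The log2 fold change was 0.88 ± 0.46 (limma adjusted p = 0.234; 1.18 ± 0.54 scaled, 0.301).

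Iigp1, the effector among the 4 IRG genes, had the widest range of the 8. It was at 22.4, 27.7 and 159.9 FPKM in AdIl17rc KO libraries 1, 2 and 3, against 9.56, 37.1 and 8.66 FPKM in WT libraries 1, 2 and 3. AdIl17rc KO library 3 held 7.14 times the value of AdIl17rc KO library 1, and WT library 2 held 4.28 times the value of WT library 3, so both groups contained 1 library far above its partners. The means were 70.0 ± 77.9 FPKM in AdIl17rc KO and 18.4 ± 16.2 FPKM in WT (SD, n = 3 each), and in AdIl17rc KO the SD exceeded the mean. The log2 fold change was the largest of the 8, 1.63 ± 0.77, with a 95% interval from -0.12 to 3.38 (limma adjusted p = 0.209; 1.96 ± 0.89 scaled, 0.301).

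Irgm1, the regulator found on Golgi and lysosomal membranes, was at 20.4, 21.1 and 60.1 FPKM in AdIl17rc KO libraries 1, 2 and 3, against 14.3, 22.8 and 8.38 FPKM in WT libraries 1, 2 and 3. WT library 2 lay a little above AdIl17rc KO libraries 1 and 2, and the groups overlapped by that library alone. The log2 fold change was 1.05 ± 0.46 (limma adjusted p = 0.193; 1.38 ± 0.53 scaled, 0.258). None of the 50-base stretches of the Irgm1 transcript occurs in another annotated gene.

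Irgm2, a Golgi-associated regulator, was at 7.96, 9.47 and 27.6 FPKM in AdIl17rc KO libraries 1, 2 and 3, against 6.35, 10.03 and 5.13 FPKM in WT libraries 1, 2 and 3. The order of the 6 libraries was the same as for Irgm1. The log2 fold change was 0.85 ± 0.43 (limma adjusted p = 0.229; 1.16 ± 0.51 scaled, 0.291).

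Igtp, the lipid-droplet and endoplasmic reticulum regulator, was at 24.3, 21.1 and 77.8 FPKM in AdIl17rc KO libraries 1, 2 and 3, against 14.9, 27.5 and 9.86 FPKM in WT libraries 1, 2 and 3. WT library 2 was above AdIl17rc KO libraries 1 and 2. On the log2 scale the difference was 1.08 ± 0.51 (limma adjusted p = 0.212; 1.40 ± 0.59 scaled, 0.277). Igtp shares 12.3% of its 50-base stretches with Irgm2, whose promoter window is also the most like its own. For the 7 members other than Gbp3, exact two-sided permutation tests on the deposited scale gave p = 0.6 for Gbp2 and p = 0.3 for each of the others.

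**Figure D2:**
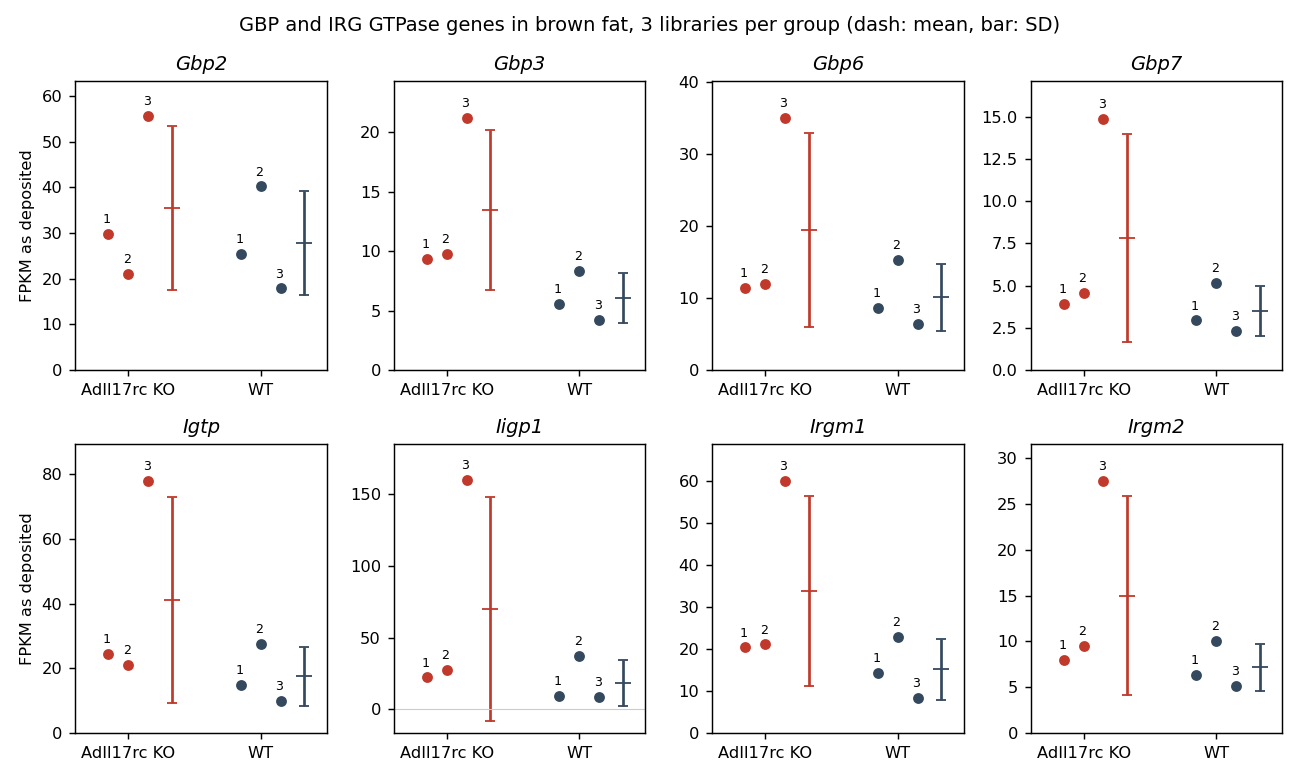
FPKM as deposited of each of the 8 genes in the 3 AdIl17rc KO libraries (red) and the 3 WT libraries (dark blue), numbered as the labels give them, with the mean (dash) and SD (bar) of each group on linear axes. AdIl17rc KO library 3 is the highest point in all 8 panels, and only in Gbp3 do the groups not overlap.

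Of the 8 genes, 0 were called at a limma adjusted p under 0.05 as deposited and 0 scaled, where 0.0184% of the 10864 tested genes were called on either scale. Without adjustment, 2 of 8 had a limma p under 0.05 as deposited (Gbp3 and Irgm1), where 1.01% of all tested genes were higher at that level, and 3 of 8 scaled (Igtp in addition), where 9.05% were. A positive log2 fold change was found for 8 of 8 members, against 12.4% of all tested genes as deposited and 49.6% scaled. It was above 1 for 4 of 8 as deposited (Gbp3, Igtp, Iigp1 and Irgm1) and 7 of 8 scaled (all but Gbp2), against 0.801% and 1.12% of all tested genes. The groups did not overlap, with AdIl17rc KO higher, for 1 of 8 on both scales, where the share over all tested genes was 1.25% as deposited and 12.9% scaled. The count of members without overlap after scaling was thus near that background.

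The median log2 fold change of the 8 genes was 0.96 as deposited and 1.27 scaled, against -0.29 and -0.0017 over all tested genes. The 4 IRG members had medians of 1.06 and 1.39, and the 4 GBP members medians of 0.84 and 1.15. These ranges overlap, since Gbp3 stood above Irgm2 on both scales, and the difference between the families was not tested. Scaled fold changes were lower for genes of high GC content across all genes (Spearman rho -0.44 over 10801 genes, which are not independent replicates). The 8 transcripts had GC contents of 39.3% to 49.5%, all below the median of 49.7%. With GC and length corrected besides scaling, the median of the 8 was 1.19 and 8 of 8 remained above 0.

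Leaving out AdIl17rc KO library 3 lowered the median log2 fold change of the 8 to 0.40 as deposited and 0.67 scaled, against 0.96 and 1.27 with all libraries. Without that library Gbp2 turned to -0.074 as deposited (0.205 scaled), while the other 7 ran from 0.29 for Gbp6 to 0.75 for Iigp1. Leaving out WT library 2 had the opposite effect, with log2 fold changes from 0.60 for Gbp2 to 2.29 for Iigp1. None of the 8 passed in either case (limma adjusted p from 0.350 to 0.898 without AdIl17rc KO library 3 and from 0.182 to 0.310 without WT library 2).

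**Figure D3:**
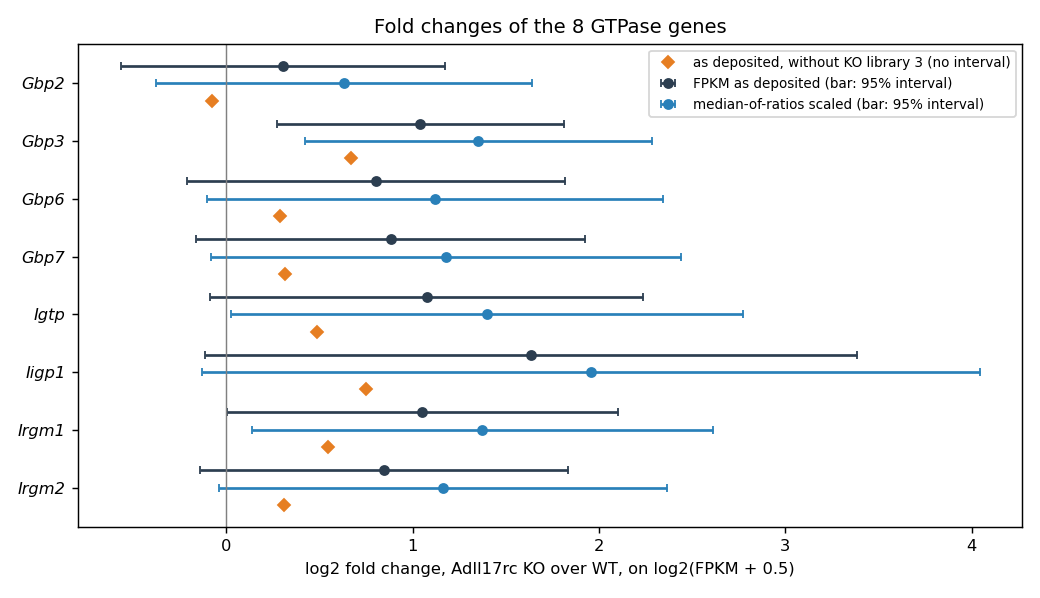
Log2 fold change of each gene, AdIl17rc KO over WT, on the log2(FPKM + 0.5) scale, as deposited (dark) and scaled to the median gene (blue), with 95% intervals of the single gene, and as deposited without AdIl17rc KO library 3 (orange, no interval). Intervals of Gbp3 and Irgm1 lie above 0 on both scales, and without that library every point moves toward 0 or, for Gbp2, to -0.074.

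AdIl17rc KO library 3 was the highest of the 6 libraries for 8 of 8 members on both scales, as it was for 6.48% of all tested genes as deposited and 27.8% scaled. WT library 3 was the lowest for 8 of 8 as deposited and 5 of 8 scaled, against 5.71% and 12% of all tested genes. Both held together for 1.61% of all tested genes as deposited and 5.03% scaled. WT library 2 was the second highest for 7 of 8 members as deposited, all but Gbp3, and for 4 of 8 scaled. Relative to the WT mean, member values were 1.07 to 1.55 times as high in AdIl17rc KO library 1, 0.755 to 1.62 times in library 2 and 1.99 to 8.68 times in library 3. The coefficient of variation over 3 libraries was 49.98% to 111% in AdIl17rc KO and 34.8% to 87.6% in WT, several times the counting error.

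Levels were ordered alike in both groups. In AdIl17rc KO the order by mean FPKM was Iigp1, Igtp, Gbp2, Irgm1, Gbp6, Irgm2, Gbp3 and Gbp7. In WT it was Gbp2, Iigp1, Igtp, Irgm1, Gbp6, Irgm2, Gbp3 and Gbp7, so Gbp2 was ahead there and the other 7 kept their order. In AdIl17rc KO no gap between neighbours in the order exceeded the larger of their SDs. In WT 1 gap did, the 2.56 FPKM between Gbp3 and Gbp7 against an SD of 2.10. Within libraries some orders were the same throughout: Igtp above Irgm1, Irgm1 above Gbp6, Gbp6 above Irgm2 and Gbp3 above Gbp7 each held in 6 of 6. By contrast Iigp1 stood above Igtp in 3 of 6 libraries.

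The 8 genes followed nearly the same course over the 6 libraries. Each gene's scaled log2 values were centred on their mean and compared by root mean square difference, where the mean course of the 8 had an amplitude of 0.96 log2 units. Gbp7 and Irgm2, of different families and on different chromosomes, were the closest pair with a difference of 0.0435. Gbp2 and Iigp1 were the farthest apart, with 0.942. From the mean course Gbp6 lay 0.0837 away, Gbp7 0.102, Irgm1 0.113, Igtp 0.116, Irgm2 0.130 and Gbp3 0.209. The 2 that departed most were Gbp2 (0.394), whose course was flatter, and Iigp1 (0.586), whose course was steeper. All 6 libraries are shared by these comparisons, so the likeness is a description of 6 points.

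Among 9587 genes with a mean of at least 1 FPKM, leaving out the members and predicted genes, the 5 nearest to the mean course of the 8 were Gbp10 (0.101), Tgtp2 (0.236), Ifi47 (0.238), Rtp4 (0.238) and Zbp1 (0.250), against a median of 0.98 over all of them. Gbp10 is a GBP, Tgtp2 and Ifi47 (Irgd) are IRG genes, Rtp4 is an interferon-induced antiviral gene, and Zbp1 encodes a sensor of nucleic acids in the Z form. Zbp1 was at 4.22, 5.04 and 15.2 FPKM in AdIl17rc KO libraries 1, 2 and 3, against 3.96, 4.31 and 1.61 FPKM in WT libraries 1, 2 and 3. Rtp4 was at 7.26, 7.92 and 18.9 FPKM in AdIl17rc KO libraries 1, 2 and 3, against 3.84, 5.62 and 3.13 FPKM in WT libraries 1, 2 and 3. Library 3 of AdIl17rc KO was far above the rest in both genes, which follows from choosing genes near the mean course of the 8. For Rtp4 the groups did not overlap.

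**Figure D4:**
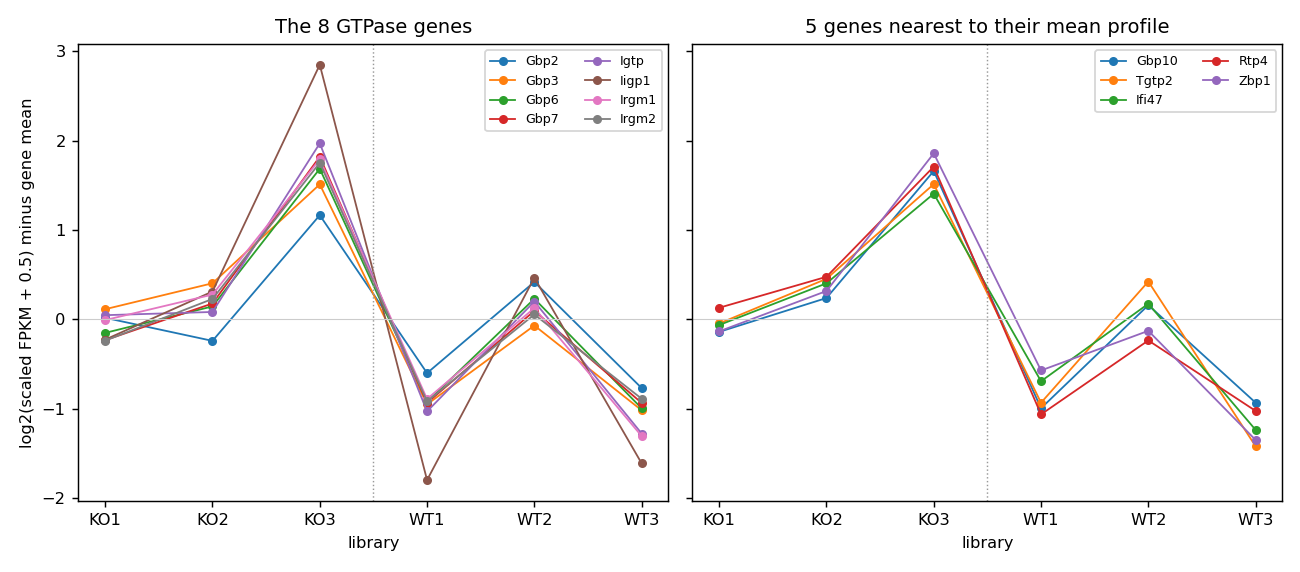
Course of the 8 GTPase genes (left) and of the 5 nearest other genes (right) over the 6 libraries, as scaled log2(FPKM + 0.5) minus the gene's mean. All 13 lines peak in AdIl17rc KO library 3, and the 5 on the right were chosen for their nearness to that course. Iigp1 has the largest swing and Gbp2 the smallest peak among the 8.

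Further genes of the GBP family behaved alike in direction. Of 8 listed, 7 were found and 5 reached the expression minimum. None of the 5 was called, all 5 had a positive log2 fold change on both scales, and the median was 0.52 as deposited and 0.74 scaled. Gbp10 was at 5.04, 5.67 and 15.7 FPKM in AdIl17rc KO libraries 1, 2 and 3, against 3.40, 6.42 and 2.83 FPKM in WT libraries 1, 2 and 3, close to the course of Gbp6, with which it shares 70.6% of its 50-base stretches. Gbp11 averaged 1.91 ± 1.69 FPKM in AdIl17rc KO and 0.669 ± 0.307 FPKM in WT. Gbp5, which promotes inflammasome assembly, averaged 1.47 ± 0.969 FPKM in AdIl17rc KO and 0.813 ± 0.365 FPKM in WT. Gbp4 (log2 fold change 0.37) and Gbp9 (0.33) differed less. Gbp2b and Gbp8 lay below the minimum in the mean of the 6 libraries and were not tested.

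Of 18 listed further IRG and related giant GTPase symbols, 13 were found and 7 were tested, with 0 called and a median log2 fold change of 1.01 as deposited and 1.26 scaled. Gm12250, the effector Irgb10 that opens bacterial membranes, was at 1.70, 1.60 and 7.10 FPKM in AdIl17rc KO libraries 1, 2 and 3, against 0.766, 1.84 and 0.494 FPKM in WT libraries 1, 2 and 3 (log2 fold change 1.19, limma adjusted p = 0.187). Tgtp2, the effector Irgb6, was at 2.91, 3.65 and 7.94 FPKM in AdIl17rc KO libraries 1, 2 and 3, against 1.78, 4.28 and 0.853 FPKM in WT libraries 1, 2 and 3. Tgtp2 shares 90.6% of its 50-base stretches with other genes, mostly Tgtp1, so the 2 cannot be told apart here. Gm4951 and Gm4841, predicted relatives next to Iigp1, had log2 fold changes of 1.08 and 1.15, while 9930111J21Rik1 (0.05) and the giant GTPase Gvin1 (-0.02, 0.23 scaled) differed little. These last 2 share 79.8% and 99.2% of their 50-base stretches with other genes, so their values are uncertain. Irgq, a more distant IRG relative, was lower in AdIl17rc KO without overlap, at 2.33 ± 0.306 FPKM in AdIl17rc KO and 3.89 ± 1.09 FPKM in WT (log2 fold change -0.61, limma adjusted p = 0.163, and -0.32 scaled). With GC and length corrected besides scaling it was -0.090 ± 0.098 (limma adjusted p = 0.705). Groups without overlap and with AdIl17rc KO lower made up 31.7% of all tested genes as deposited and 12.5% scaled.

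Among genes that lie next to the members in RefSeq's GRCm38.p6 order but belong to other families, all but the small RNA gene Snord96a had scaled log2 fold changes closer to 0 than any member. Scaled log2 fold changes of the tested neighbours of Gbp2, Gbp3 and Gbp7 were 0.06 for Pdlim5, 0.08 for Gtf2b and 0.0041 for Pkn2, against 0.74 for Gbp5 in the same cluster. Beside Igtp and Irgm2 they were 0.20 for Mrpl22, -0.35 for Zfp692 and 0.20 for Zfp672, against 1.43 for Gm12250. Beside Gbp6, Lrrc8b had -0.07, and beside Iigp1, Smim3 had 0.11 and Dctn4 0.24. Next to Irgm1, Trim41 had 0.02 and Psme2b 0.33, and Snord96a was listed at 0 in 5 libraries and at 504 FPKM in WT library 2 (log2 fold change -3.33, limma adjusted p = 0.328). As deposited, where the median gene stood at -0.29, these non-GTPase neighbours ran from -0.58 for Zfp692 to 0.02 for Psme2b, leaving out Snord96a. None of them passed by limma on either scale.

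Transcripts of the pathway that induces the GTPases had no common direction, and the activity of the pathway was not measured. Of 9 tested genes of interferon gamma and its signalling, 4 had a positive and 5 a negative log2 fold change on both scales, 0 were called, and the median was -0.34 as deposited and -0.06 scaled. Interferon gamma itself, Ifng, was listed at 0 in AdIl17rc KO libraries 1 and 2 and at 0.0249 FPKM in library 3, against 0.0235 to 0.109 FPKM in WT, all below the expression minimum. The receptor subunit gene Ifngr2 averaged 3.16 ± 0.200 FPKM in AdIl17rc KO and 5.01 ± 1.11 FPKM in WT, and the kinase gene Jak1 18.2 ± 0.559 FPKM in AdIl17rc KO and 29.0 ± 3.40 FPKM in WT, both without overlap on both scales (limma adjusted p = 0.160 and 0.151; scaled log2 fold changes -0.27 and -0.33). Groups without overlap and with AdIl17rc KO lower were found for 3 of the 9 as deposited and 2 of the 9 scaled. Over all tested genes the shares were 31.7% and 12.5%, so the count as deposited was near that background. The other kinase gene, Jak2, was at -0.58 (-0.26 scaled), and the receptor subunit gene Ifngr1 at -0.43 (-0.10 scaled). The transcription factor gene Irf1 was at 9.32, 6.47 and 19.3 FPKM in AdIl17rc KO libraries 1, 2 and 3, against 10.4, 9.51 and 5.60 FPKM in WT libraries 1, 2 and 3. Its highest value was in AdIl17rc KO library 3 and its lowest in WT library 3, and the groups overlapped. The log2 fold change of Irf1 was the highest of the 9, 0.34 as deposited and 0.66 scaled. AdIl17rc KO library 3 was the highest library for 4 of the 9 on both scales, against 6.48% of all tested genes as deposited and 27.8% scaled. WT library 3 was the lowest for 4 of the 9 as deposited and 3 scaled, against 5.71% and 12%.

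In the type I and III interferon list 8 genes were tested, 3 above and 5 below 0 in log2 fold change as deposited (4 and 4 scaled), and 0 were called. Groups did not overlap, AdIl17rc KO higher, for 1 of 8 as deposited and 4 of 8 scaled, against 1.25% and 12.9% of all tested genes. With AdIl17rc KO lower the count was 2 of 8 on both scales, against 31.7% and 12.5%. Irf7, the factor that amplifies type I interferon responses, was at 15.1, 11.5 and 19.1 FPKM in AdIl17rc KO libraries 1, 2 and 3, against 5.90, 7.56 and 3.77 FPKM in WT libraries 1, 2 and 3. Unlike most of the GTPases it was high in all 3 AdIl17rc KO libraries (log2 fold change 1.35, limma adjusted p = 0.151; 1.66 scaled, 0.203). The receptor subunit genes Il10rb (-0.73) and Ifnar1 (-0.38) and the factor gene Irf3 (-0.48) had negative values that were smaller after scaling (-0.42, -0.10 and -0.17).

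Antiviral effectors, which answer mainly to type I interferon, were higher in AdIl17rc KO for 14 of 14 tested genes on both scales, with a median log2 fold change of 0.96 as deposited and 1.18 scaled and 0 called. Their groups did not overlap, AdIl17rc KO higher, for 11 of 14 as deposited and 13 of 14 scaled, against the backgrounds of 1.25% and 12.9%, and against 1 of 8 GTPase members. Ifit1, which binds viral RNA, was at 8.62, 9.45 and 25.6 FPKM in AdIl17rc KO libraries 1, 2 and 3, against 3.06, 5.98 and 1.20 FPKM in WT libraries 1, 2 and 3. Ifit1, Ifit3, Rsad2 (viperin) and Mx2 had log2 fold changes of 1.97, 1.67, 1.78 and 1.44 (limma adjusted p = 0.151 each). Interferon gamma targets outside the GTPases lay lower: 8 of 11 tested genes were positive as deposited and 10 of 11 scaled, with medians of 0.32 and 0.65 and 0 called. Among them the chemokine genes Cxcl9 (0.73) and Cxcl10 (0.87) and the peptide transporter gene Tap1 (0.72) had the higher values, and Wars was at -0.36 (-0.04 scaled). Differences between these lists were not tested.

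Relative to the WT mean of each gene, the scaled median of the 8 GTPases stood at 0.55, 0.80 and 2.37 log2 units in AdIl17rc KO libraries 1, 2 and 3, and at -0.33, 0.76 and -0.44 in WT libraries 1, 2 and 3. WT library 2 therefore lay between AdIl17rc KO libraries 1 and 2. For antiviral effectors the same values were 0.91, 1.01 and 1.86 in AdIl17rc KO libraries 1, 2 and 3, and 0.02, 0.46 and -0.38 in WT libraries 1, 2 and 3, so the WT libraries stood below all AdIl17rc KO libraries. For interferon gamma signalling they stayed between -0.21 and 0.12 in every library.

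**Figure D5:**
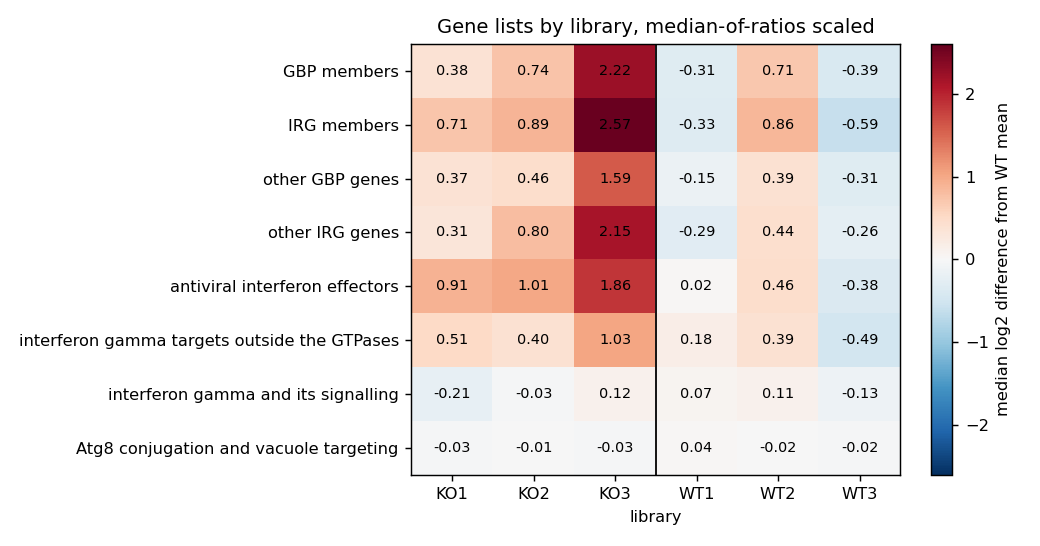
Median over the tested genes of each list of the scaled log2 difference from the gene's WT mean, by library, with AdIl17rc KO left of the line and WT right of it (red above, blue below the WT mean). AdIl17rc KO library 3 is the highest for each GTPase row and WT library 2 lies between AdIl17rc KO libraries 1 and 2 there, while the signalling row stays within 0.21 of the WT mean.

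Genes that work with the GTPases showed no common direction after scaling. The Atg8 conjugation machinery loads IRG and GBP proteins onto vacuoles. The list of Atg8 conjugation and vacuole targeting also holds genes outside that machinery, such as Trim21 and Sqstm1. Of the 13 tested genes of the list 1 was positive and 12 negative as deposited, 7 and 6 scaled, with 0 called. The positive one as deposited was Trim21, an interferon-induced ubiquitin ligase (log2 fold change 0.84, 1.09 scaled), while Gabarapl1 (-0.59), Map1lc3b (-0.55) and the adaptor gene Sqstm1 (-0.63) were at -0.25, -0.22 and -0.30 scaled. Inflammasome and caspase partners had 2 positive and 4 negative of 6 tested as deposited, 4 and 2 scaled, with 0 called. Zbp1 had the highest value there (1.06), and Casp1, the protease of inflammasomes, was at 0.25 (0.43 scaled, 0.07 with GC and length corrected besides). Casp8 and Il1b were both at -0.53 as deposited, or -0.22 and -0.24 scaled. Prenylation enzymes, which attach lipid tails to proteins such as Gbp2, and GTPase regulators had 0 positive of 9 tested as deposited and 6 of 9 scaled, with 0 called. Of these Arhgdia (-0.51, -0.18 scaled), Icmt (-0.34, -0.03 scaled), Fntb (-0.33, -0.05 scaled) and Rabgap1l (-0.24, 0.06 scaled) had the smallest p.

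The ISRE core was also searched in the promoters of the other lists. It was found for 1 of 1 further GBP gene with a promoter window (Gbp5), 3 of 4 further IRG genes (Tgtp2, Gm12250 and 9930111J21Rik1) and 6 of 10 antiviral effectors. Among interferon gamma targets outside the GTPases it was found for 2 of 9, in interferon gamma signalling for 1 of 7, in type I and III interferon signalling for 1 of 7 and in the Atg8 list for 1 of 10, the last being Trim21. None of the 4 inflammasome genes or the 6 prenylation genes with a window held it.

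Summed markers of immune and endothelial cells, which could supply these transcripts, were not at their highest in AdIl17rc KO library 3 as deposited for any of the 6 cell types listed, but macrophage markers were after scaling. Of 12 macrophage markers 11 were found and tested, 0 called, and they summed to 82.4 to 92.3 FPKM in AdIl17rc KO and 59.9 to 134 FPKM in WT. Scaled, the sums were 90.0 to 110 in AdIl17rc KO, the highest in library 3, and 57.0 to 101 in WT. The log2 fold change was positive for 8 of the 11 scaled and 7 as deposited, against 49.6% and 12.4% of all tested genes. Its median was 0.34 scaled and 0.02 as deposited. AdIl17rc KO library 3 was the highest for 6 of the 11 scaled and 1 as deposited, against 27.8% and 6.48% of all tested genes. Relative to the WT mean, the scaled median of these markers stood at 0.19, 0.45 and 0.46 log2 units in AdIl17rc KO libraries 1, 2 and 3, and at 0.25, 0.19 and -0.44 in WT libraries 1, 2 and 3, so WT library 3 was the lowest, as it was for the GTPases as deposited. T and NK cell markers, 10 of 12 found and 0 above the expression minimum, summed to 4.16, 1.31 and 2.24 FPKM in AdIl17rc KO libraries 1, 2 and 3, against 3.79, 2.37 and 1.42 FPKM in WT libraries 1, 2 and 3. B cell markers, 5 of 6 found and 0 tested, summed to 0.370 to 0.466 FPKM in AdIl17rc KO and 0.519 to 1.17 FPKM in WT, and dendritic cell markers, 6 of 6 found, to 1.87 to 4.57 FPKM in AdIl17rc KO and 3.46 to 6.10 FPKM in WT. Neutrophil markers, 6 of 7 found, were higher in AdIl17rc KO library 3 (54.9 FPKM) than in libraries 1 and 2 (22.9 and 14.2 FPKM) but were at 56.6 to 78.6 FPKM in WT. Endothelial markers, 10 of 10 found, summed to 137 to 221 FPKM in AdIl17rc KO and 216 to 372 FPKM in WT. The 10 brown adipocyte markers summed to 14673 to 16807 FPKM in AdIl17rc KO and 14020 to 16994 FPKM in WT, so the labelled tissue showed its markers in every library. No marker found was at 0 in all 6 libraries, and the part of any of these cell types in the GTPase values was not tested. Skeletal muscle markers, high in AdIl17rc KO libraries 1 and 2, were at their lowest in library 3, where the GTPases were at their highest. Muscle markers were also low in WT libraries 1 and 2 (2.99 and 2.37 FPKM), where the scaled median of the 8 GTPases was -0.33 and 0.76. A relation between muscle markers and GTPases was not tested.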

How the data were processed

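PolyA libraries of brown adipose tissue took their group and number from the labels (3 AdIl17rc KO, 3 WT). The authors deposited 1 table of FPKM values. STAR 2.5.1b, Cufflinks 2.2.1, DESeq2 1.10.1 and mouse build mm9 are named in the submitters' processing notes. Not given in the sources used here are the annotation, the strand setting and the treatment of reads with several matches, so near-identical family members can share reads. FPKM are not counts, so no count test was used. Symbols that a workbook had turned into dates (27 entries) were left out.

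The 10864 genes that averaged at least 0.5 FPKM entered a two-sided limma 3.58.1 test (R 4.3.3) of log2(FPKM + 0.5) on genotype, with trended empirical Bayes. P-values were adjusted over all of them by Benjamini-Hochberg, with a threshold of 0.05. Scaled values come from an identical fit on values divided by median-of-ratios factors, which were 1.00, 0.849 and 0.836 for AdIl17rc KO libraries 1, 2 and 3 and 1.33, 1.02 and 1.05 for WT libraries 1, 2 and 3. The log2(FPKM + 0.5) scale understates the change of low genes. GC content and length were corrected with splines of 4 degrees of freedom. The test was checked on simulated data. Alternatives were other pseudocounts, filters, scalings and variance models, a replicate block and each library left out in turn. Leaving out AdIl17rc KO libraries 1 and 2 together was added after seeing the data.

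Promoters were RefSeq's (GRCm38.p6), aligned with Biopython 1.88, and shared 50-base stretches were counted in the longest transcript of each gene in an annotation of GRCm38, another build than the authors' and used only for names, sequence, length and gene order. The members, the gene lists and their naming rule (all members, other GBP and IRG genes, up to 4 genes of smallest p per pathway list, tested neighbours and the 5 nearest courses) were chosen with earlier results of these data known. Irf1, Ifng, Casp1 and Ifit1 are named besides, for their roles. Some genes of the lists are not reported here.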

Additional observations from a re-analysis of the deposited data

How the results depend on the processing

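Over 27 alternatives, 0 of the 8 GTPase genes were called in any. The smallest limma adjusted p of a member was 0.0668 (Gbp3, each library rescaled to a common FPKM sum). At least 7 of the 8 stayed above 0: the exception was Gbp2, which with 1 library left out as deposited ran from -0.074 without AdIl17rc KO library 3 to 0.616 without library 2. Their median log2 fold change ran from 0.40 to 1.23 with 1 library left out as deposited and from 0.67 to 1.61 scaled, the lowest without AdIl17rc KO library 3 in both. It was 1.97 as deposited and 2.38 scaled without AdIl17rc KO libraries 1 and 2, where the 1 remaining library is assumed to vary like WT. The calls over all genes, 2 in the fit described, were 1 with no filter, 263 with a common sum (which Mir6236 raised in AdIl17rc KO library 2), 14 with robust empirical Bayes, 3 at a threshold of 0.1, 1 to 61 with 1 library left out as deposited (61 without AdIl17rc KO library 3), 1 to 23 scaled (23 without that library), 4, 4 and 7 without WT libraries 1, 2 and 3 on both scales, and 9 and 7 without AdIl17rc KO libraries 1 and 2, as deposited and scaled. Nothing in the labels pairs libraries, and equal numbers did not deviate together (correlations of 0.10, -0.12 and -0.081 after removing group means). With the replicate number as a block they were 1 as deposited, 1 scaled and 1 with GC and length correction; the block left members' fold changes in each as without it and gave limma adjusted p from 0.106 to 0.626 as deposited, 0.232 to 0.499 scaled and 0.443 to 0.682 with GC and length correction. With 3 libraries a group, and 1 of them far above its partners in AdIl17rc KO, the differences could not be told from the spread between libraries. This does not show that the GTPases did not differ.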
